A study of Mus musculus with 18 samples.

Results

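The 10 genes described here were followed across the 18 samples of cultured mouse renal tubular epithelial cells (RPTEC): the interleukin and interleukin antagonist genes Il1a, Il1b, Il1rn, Il6, Il12a, Il15, Il18, Il23a and Il33, and the receptor chain gene Il18rap. They were chosen by name, with earlier results of these data known, from the 36528 genes of the files. All 10 were found through their Entrez Gene identifiers. Primary C57BL/6 tubulointerstitial epithelial cells from a commercial supplier were given vehicle (DMSO), mouse TWEAK at 100 ng/mL, or TWEAK together with the NIK inhibitor NIK SMI1 at 3 μM, and were collected after 6 h or 24 h. This gave 6 groups of 3 samples, whose replicate numbers here are only their order in the series. No group received NIK SMI1 without TWEAK, so an effect of the inhibitor on resting cells was not measured. The labels do not say whether the 3 samples of a group came from separate cultures or animals, and p-values therefore measure only the spread between these samples, which may be technical.

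TWEAK is a member of the TNF family that signals through its receptor Fn14, and its signal includes the non-canonical NF-κB pathway, in which the kinase NIK is the central step. Interleukins of the IL-1 family are made by epithelia as well as by leukocytes. IL-33, IL-1α and IL-18 are alarm signals that damaged or inflamed epithelium can release, and IL-1 receptor antagonist, encoded by Il1rn, blocks the receptor that IL-1α and IL-1β share. IL-18 signals through a receptor of 2 chains, IL-18Rα (Il18r1), which binds the cytokine, and the accessory chain IL-18Rβ (Il18rap). IL-12 and IL-23 are heterodimers that share the p40 subunit (Il12b), with p35 (Il12a) completing IL-12 and p19 (Il23a) completing IL-23. IL-15 is presented on IL-15Rα (Il15ra) to cells that carry IL-2Rβ and the common γ chain, and IL-6 signals through IL-6R and gp130 (Il6st).

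Because TWEAK signals to NF-κB, the bases upstream of the start sites were searched for the NF-κB motif. RefSeq promoter windows (GRCm38.p6) were matched for 8 of the 10 genes, in 12 windows from 250 bases before to 50 bases after a start site. Il15 and Il23a were not matched. The NF-κB consensus, a motif of 10 bases read on both strands, occurred in 4.51% of all 32851 windows. Among the 12 windows only that of Il6 held it, at a single place on the strand of the gene with its first base 44 bases before the start site (position -44). The 250 upstream bases are printed for Il18rap, the gene with the most reads of the 10, for the first window of Il33, which moved the other way, and for Il6, with the match in capitals. They lie at chr1:40515112-40515361, chr19:29924863-29925112 and chr5:30012864-30013113, all on the plus strand.
Il18rap: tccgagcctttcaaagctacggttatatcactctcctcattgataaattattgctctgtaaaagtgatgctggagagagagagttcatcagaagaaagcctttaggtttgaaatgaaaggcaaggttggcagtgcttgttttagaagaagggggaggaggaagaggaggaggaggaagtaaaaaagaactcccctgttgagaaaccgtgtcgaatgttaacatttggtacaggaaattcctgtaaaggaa
Il33: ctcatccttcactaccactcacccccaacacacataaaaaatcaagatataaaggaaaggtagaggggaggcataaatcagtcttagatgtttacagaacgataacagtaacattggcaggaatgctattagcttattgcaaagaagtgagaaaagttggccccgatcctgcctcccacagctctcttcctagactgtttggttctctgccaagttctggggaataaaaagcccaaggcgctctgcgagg
Il6: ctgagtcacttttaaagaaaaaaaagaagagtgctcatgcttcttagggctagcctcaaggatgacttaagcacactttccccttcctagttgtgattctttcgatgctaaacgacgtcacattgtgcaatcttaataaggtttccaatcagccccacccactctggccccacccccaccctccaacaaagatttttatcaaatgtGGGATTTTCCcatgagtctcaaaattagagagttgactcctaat
A match is a run of letters and not a measured binding site, and its absence says only that these letters are not in the window.

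Between 18040966 and 51956444 reads were counted per sample (median 35374254), so that 3 reads corresponded to 0.0577 to 0.166 CPM, the reads of a gene scaled to the library total. Of the epithelial markers, Krt8, Krt18, Cdh1, Epcam and Pax8 summed to 7187 to 9072 CPM in every library. Within this sum they moved in opposite directions. Epcam was called higher with TWEAK (1.81-fold at 6 h and 1.87-fold at 24 h) and lower with NIK SMI1 (0.65 and 0.726 of the TWEAK level). Krt8, Krt18 and Pax8 were called lower with TWEAK and higher with the inhibitor at both times. Cdh1 was called higher with TWEAK at 6 h and lower at 24 h, and was not called with the inhibitor. The 7 markers of proximal tubule summed to 10.7 to 14.6 CPM and were uneven. Slc34a1 had 3 reads and Hnf4a 12 reads in all 18 libraries together, and Lrp2 and Aqp1 had at most 15 and 18 reads in a library. Cubn, Slc5a2 and Ggt1 had reads in each group. With TWEAK, Cubn was called lower at 6 h (0.676 of vehicle, adjusted p = 0.0044) and 24 h (0.701, adjusted p = 0.00528). Ggt1 was called lower at 24 h only (0.544, adjusted p = 0.0309), and Slc5a2 was not called at either time. Of 9 macrophage and dendritic cell markers, Tyrobp had no read and Lyz2 had 3 reads, and Cd14, Cd68 and Csf1r carried most of a sum of 51.6 to 91.9 CPM. Markers of T and NK cells summed to at most 0.0956 CPM, with Cd3e, Cd3g, Ncr1 and Nkg7 at 0. B cell markers summed to at most 0.160 CPM and endothelial markers to at most 0.813 CPM. Of the latter, Cdh5 was called higher with TWEAK at 24 h (2.98-fold, adjusted p = 0.0307) from few reads. Fibroblast markers summed to 9.40 to 13.6 CPM, mostly from Col1a1, which was called lower with TWEAK at 6 h (0.79-fold, adjusted p = 0.0109) and not at 24 h. The macrophage and dendritic cell sum, to which Cd14 gave the largest part, moved with TWEAK and with the inhibitor at both times. At 6 h it was 56.2 to 61.5 CPM in vehicle samples, 83.8 to 91.9 CPM under TWEAK and 65.0 to 72.8 CPM under TWEAK and NIK SMI1, and at 24 h it was 55.3 to 61.2, 65.1 to 68.3 and 51.6 to 56.9 CPM. Cd14 was called higher with TWEAK (1.68-fold and 1.17-fold) and lower with the inhibitor (0.722 and 0.797 of the TWEAK level) at 6 h and 24 h. Csf1r was called higher with TWEAK at 24 h (1.48-fold) and lower with the inhibitor at that time (0.698). At 6 h Csf1r was not called with TWEAK (adjusted p = 0.656) or the inhibitor (adjusted p = 0.416). Cd68 was not called with TWEAK (adjusted p = 0.584 at 6 h and 0.649 at 24 h) or with the inhibitor (0.703 and 0.21). Ptprc had at most 11 reads in a library and was not tested. The part of any of these cell type markers in the results was not tested. Reads of pancreatic islet genes separated some libraries. The 7 islet genes summed to 14.3 to 29.0 CPM in the 6 h libraries and the vehicle libraries at 24 h, to 13.2, 0.214 and 4.18 CPM in the 3 TWEAK libraries at 24 h, and to 0.0451 to 0.0870 CPM in the libraries with NIK SMI1 at 24 h. Treatment with NIK SMI1 and the near absence of islet reads therefore cannot be told apart in comparisons of the 24 h inhibitor group with vehicle. Ins2 was also called lower with TWEAK than with vehicle at 24 h (0.261-fold, adjusted p = 0.00277). It was called lower with NIK SMI1 than with TWEAK at 24 h (adjusted p = 0.00144). Its TWEAK and inhibitor effects differed between the times (adjusted p = 0.0219 and 0.022). The islet difference thus enters these comparisons too, and its part in the results was not tested. In bulk RNA, fewer cells that express a gene and less RNA per cell also cannot be told apart.

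Of the 10 genes, 7 passed the filter on low counts (over 10 reads in 4 samples or more) and were tested among 15521 genes. A gene was called when the adjusted p-value of the edgeR quasi-likelihood test, over all tested genes, was below 0.05. TWEAK raised Il18rap and Il23a and lowered Il33 at both times. It lowered Il1a at 6 h and Il1rn at 24 h. NIK SMI1 brought Il18rap and Il23a part of the way back at both times and raised Il33 at 24 h. For TWEAK against vehicle at 6 h, 2 of the 7 genes were called higher and 2 lower, where 11.7% of all tested genes were called higher and 12% lower. At 24 h, again 2 were called higher and 2 lower, against 18.3% and 20.7% of all tested genes. Taken over the 7 genes, the median log2 difference was -0.16 at 6 h and -0.49 at 24 h, beside -0.003 and -0.006 over all tested genes. These shares and medians are descriptions, because the genes were chosen with earlier results of these data known.

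**Figure D1:**
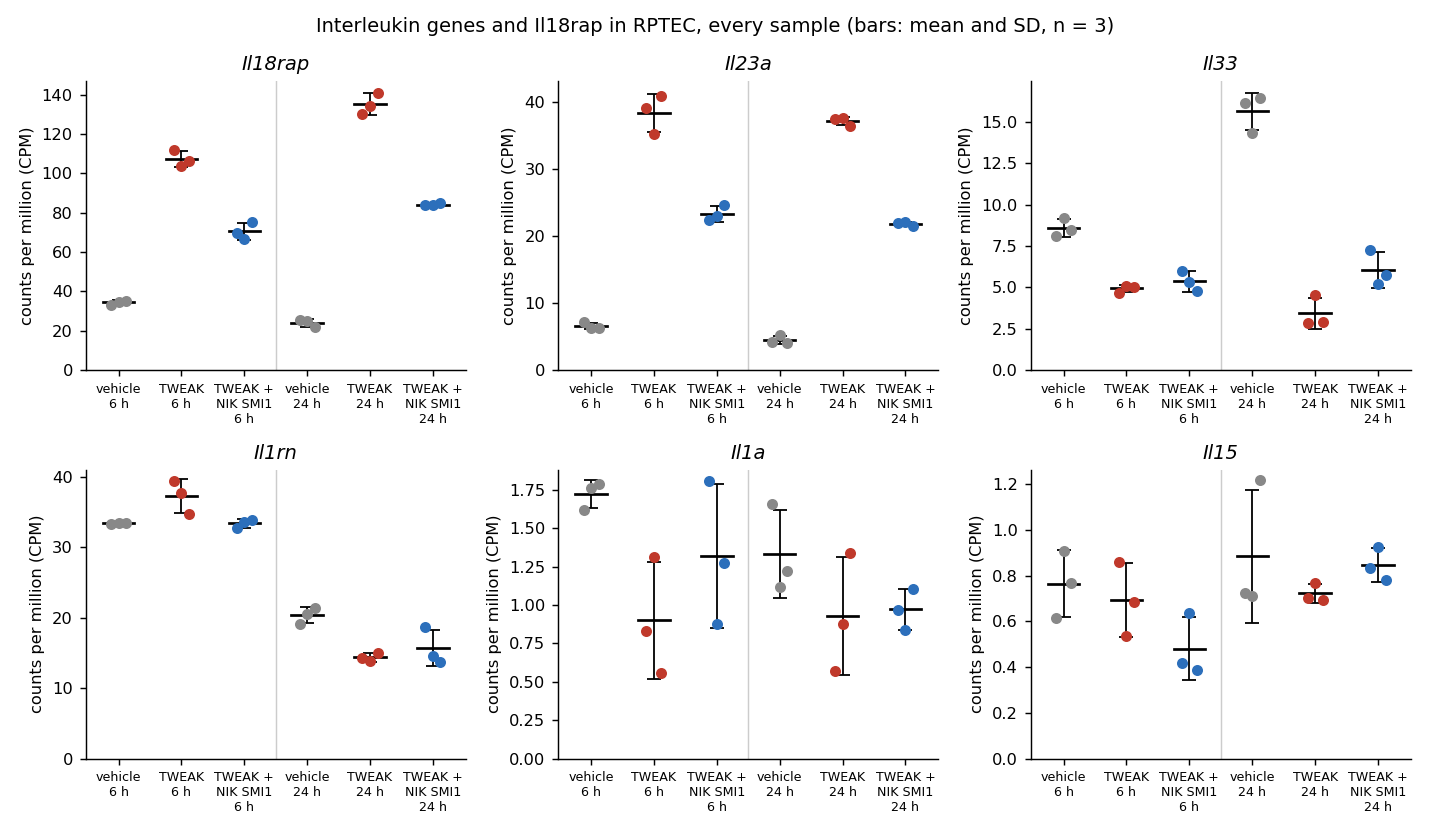
CPM of the interleukin genes and Il18rap in every sample, by group and time, with 1 point for each sample and a bar at the group mean. The 3 TWEAK samples lie above the 3 vehicle samples for Il18rap and Il23a and below them for Il33 at both times, and the samples with NIK SMI1 lie between them for Il18rap and Il23a.

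Il18rap, the accessory chain of the IL-18 receptor, was the most highly read of the genes. At 6 h its level was 33.2, 34.7 and 35.1 CPM in the vehicle samples, 112, 104 and 106 CPM in TWEAK samples, and 69.5, 66.6 and 75.2 CPM with TWEAK and NIK SMI1. At 24 h it was 25.3, 25.01 and 21.7 CPM in vehicle samples, 130, 134 and 141 CPM in TWEAK samples, and 83.8, 83.7 and 84.7 CPM with TWEAK and NIK SMI1. The 6 groups did not overlap, and their order from high to low was TWEAK at 24 h, TWEAK at 6 h, TWEAK with NIK SMI1 at 24 h and then at 6 h, vehicle at 6 h, and vehicle at 24 h. TWEAK raised Il18rap 3.14-fold at 6 h (by 1.65 ± 0.0475 SE on the log2 scale, adjusted p = 5.38e-20) and 5.59-fold at 24 h (2.48 ± 0.0517, adjusted p = 2.08e-23). The larger rise at 24 h was a difference of 0.83 ± 0.0703 on the log2 scale (adjusted p = 2.89e-09). The vehicle level, against which each rise was taken, fell by 0.57 on the log2 scale from 6 h to 24 h (SE 0.055, adjusted p = 4.51e-09).

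NIK SMI1 lowered Il18rap to 0.653 of its level with TWEAK alone at 6 h (by -0.61 ± 0.0461 on the log2 scale, adjusted p = 2.12e-10) and to 0.62 at 24 h (-0.69 ± 0.0444, adjusted p = 4.46e-12). The inhibitor effect differed by -0.08 between the times, with an interval from -0.21 to 0.06 (adjusted p = 0.576). With the inhibitor, 49.6% ± 5.97 (SD, n = 3) of the rise remained at 6 h and 54.1% ± 0.49 at 24 h. This SD is over the inhibitor samples only. The vehicle and TWEAK means were taken as fixed, so their spread is left out and the share is less precise than it reads. The level was still 2.05-fold that of vehicle at 6 h (adjusted p = 1.61e-14) and 3.46-fold at 24 h (adjusted p = 2.38e-19). Il18rap and Il23a were shown by the study among TWEAK-inducible, NIK-dependent genes picked on these same samples, so that their direction here is not independent evidence.

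Il23a encodes p19, the subunit particular to IL-23. Its level at 6 h was 7.10, 6.23 and 6.26 CPM in vehicle samples, 39.0, 35.1 and 40.8 CPM in TWEAK samples, and 22.3, 23.0 and 24.6 CPM with TWEAK and NIK SMI1. At 24 h the values were 4.21, 5.18 and 4.002 CPM, then 37.4, 37.6 and 36.4 CPM, and 21.9, 22.01 and 21.4 CPM in the same order of groups. Vehicle, inhibitor and TWEAK samples did not overlap at either time, and the TWEAK samples of 6 h and 24 h overlapped each other. The rise with TWEAK was 5.94-fold at 6 h (by 2.57 ± 0.0718 on the log2 scale, adjusted p = 2.8e-20) and 8.41-fold at 24 h (3.07 ± 0.0833, adjusted p = 6.94e-21). It was the largest fold change among the 7 tested genes at each time. The difference between the times was 0.50 ± 0.118 on the log2 scale (adjusted p = 0.00559), and without vehicle replicate 1 of 24 h it was 0.45 (adjusted p = 0.0539). The TWEAK level itself was 38.3 ± 2.90 CPM at 6 h and 37.1 ± 0.642 CPM at 24 h (SD, n = 3), while the vehicle level fell by 0.62 on the log2 scale (adjusted p = 2.28e-05).

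With NIK SMI1, Il23a was at 0.604 of the TWEAK level at 6 h (by -0.73 ± 0.0641 on the log2 scale, adjusted p = 4.14e-09) and at 0.585 at 24 h (-0.77 ± 0.0627, adjusted p = 3.6e-10). The share of the rise that remained was 52.7% ± 3.66 at 6 h and 53.0% ± 1.01 at 24 h (SD over the inhibitor samples only, n = 3). In the comparison with the TWEAK library that had the fewest islet reads alone, the inhibitor difference at 24 h was -0.78 for Il23a (adjusted p = 9.25e-07) and -0.67 for Il18rap (adjusted p = 3.33e-08). Both groups with the inhibitor stayed above vehicle, 3.59-fold at 6 h (adjusted p = 1.03e-15) and 4.92-fold at 24 h (adjusted p = 5.87e-17). The partner subunit p40 was not detected: Il12b had 0 reads in all 18 libraries, which in the smallest group total allows up to 0.038 CPM. Of the receptor chains for IL-23, Il23r had 0 to 4 reads per library and was not tested, and Il12rb1 had 3 to 18 reads and was not called for TWEAK (log2 fold change 0.89 at 24 h, adjusted p = 0.0998). Il12a, the p35 subunit of IL-12, had a single read, in a TWEAK library at 6 h.

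Il33, which encodes a nuclear alarm cytokine of the IL-1 family, moved the other way. At 6 h it was at 8.10, 9.19 and 8.49 CPM in vehicle samples, at 4.68, 5.07 and 5.04 CPM in TWEAK samples, and at 6.01, 5.31 and 4.77 CPM with TWEAK and NIK SMI1. At 24 h it was at 16.1, 14.4 and 16.5 CPM in vehicle samples, at 2.86, 4.52 and 2.92 CPM in TWEAK samples, and at 7.27, 5.19 and 5.72 CPM with TWEAK and NIK SMI1. The vehicle samples were the highest at each time, the inhibitor samples overlapped those with TWEAK at 6 h, and at 24 h they lay between TWEAK and vehicle. TWEAK lowered Il33 to 0.58 of the vehicle level at 6 h (by -0.79 ± 0.126 on the log2 scale, adjusted p = 2.04e-05) and to 0.225 at 24 h (-2.15 ± 0.132, adjusted p = 2.6e-13). The decrease was larger at 24 h by 1.37 ± 0.185 on the log2 scale (log2 difference -1.37, adjusted p = 8.95e-06). In the vehicle cells Il33 rose 1.74-fold from 6 h to 24 h (adjusted p = 4.95e-06).

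The inhibitor difference for Il33 was 0.14 on the log2 scale at 6 h, with an interval from -0.16 to 0.43 (adjusted p = 0.625). At 24 h NIK SMI1 raised it 1.73-fold over TWEAK, by 0.79 ± 0.142 on the log2 scale (adjusted p = 1.5e-04). The TWEAK library of 24 h with the fewest islet reads, replicate 2, was also the one with the highest Il33, at 4.52 CPM. With that library as the only TWEAK sample the increase was 0.44 (adjusted p = 0.0937), and with the lone sample assumed to vary like the other groups the call was lost. The change of the inhibitor effect between the times was 0.65 ± 0.201 and missed the threshold (adjusted p = 0.061). Of the decrease with TWEAK, 88.2% ± 17.0 remained with the inhibitor at 6 h and 78.5% ± 8.83 at 24 h (SD over the inhibitor samples only, n = 3). Against vehicle, Il33 was still lower with the inhibitor, at 0.638 of its level at 6 h (adjusted p = 0.00118) and 0.388 at 24 h (adjusted p = 2.31e-09).

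**Figure D2:**
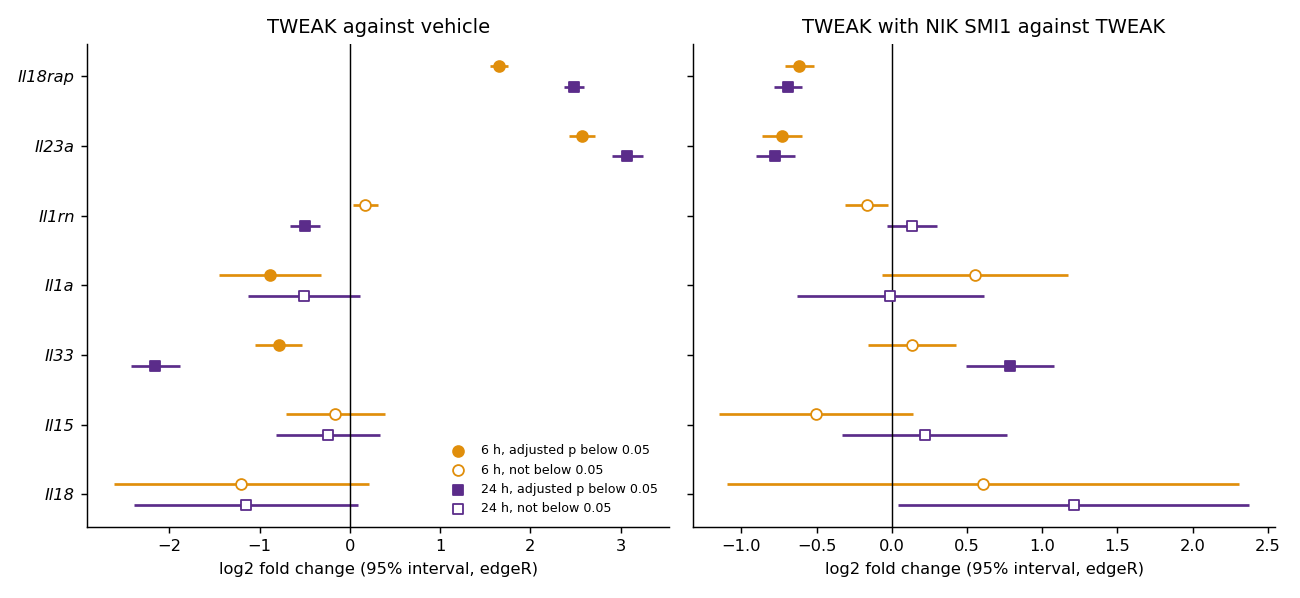
Log2 fold changes of the 7 tested genes with 95% intervals of the edgeR fit, for TWEAK against vehicle and for TWEAK with NIK SMI1 against TWEAK at 6 h and 24 h. The intervals of Il18rap and Il23a lie above 0 for TWEAK and below 0 for the inhibitor, and those of Il33 lie below 0 for TWEAK at both times.

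Il1rn, the gene of the IL-1 receptor antagonist, had the second highest read total of the 10 genes and a different course. Its level at 6 h was 33.3, 33.5 and 33.5 CPM in vehicle samples, 39.5, 37.7 and 34.8 CPM in TWEAK samples, and 32.7, 33.6 and 33.9 CPM with TWEAK and NIK SMI1. At 24 h it was 19.2, 20.6 and 21.4 CPM, then 14.2, 13.8 and 15.1 CPM, and 18.7, 14.6 and 13.8 CPM. At 6 h the TWEAK samples were a little above the vehicle samples without overlap, and the difference of 0.17 ± 0.067 on the log2 scale was not called (adjusted p = 0.0668). At 24 h TWEAK lowered Il1rn to 0.71 of the vehicle level (log2 fold change -0.49 ± 0.081, adjusted p = 1.65e-05). The effect of TWEAK differed between the times by -0.665 ± 0.105 (adjusted p = 7.55e-05). NIK SMI1 gave differences of -0.17 at 6 h (adjusted p = 0.138) and 0.14 at 24 h (adjusted p = 0.278), neither of which was called. At 24 h the inhibitor group stayed below vehicle at 0.78 of its level (adjusted p = 0.00158). In vehicle cells Il1rn fell by 0.79 on the log2 scale over the same interval (adjusted p = 3.1e-09).

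The agonists that IL-1 receptor antagonist opposes were far lower. Il1a had 13 to 93 reads per library. At 6 h its level was 1.62, 1.76 and 1.79 CPM in vehicle samples, 0.833, 1.31 and 0.555 CPM in TWEAK samples, and 1.81, 0.878 and 1.28 CPM with TWEAK and NIK SMI1. The vehicle samples lay above the TWEAK samples, and the inhibitor samples spread over both. TWEAK lowered Il1a at 6 h to 0.54 of vehicle (log2 fold change -0.89 ± 0.274, adjusted p = 0.0177), and this call was lost without TWEAK replicate 1 (-0.82, adjusted p = 0.063) or replicate 3 (-0.65, adjusted p = 0.114). At 24 h the vehicle samples were at 1.12 to 1.66 CPM, the TWEAK samples at 0.573 to 1.34 CPM and the inhibitor samples at 0.841 to 1.11 CPM, and the TWEAK difference of -0.51 was not called (adjusted p = 0.195). Il1b, the leukocyte-associated agonist, had 36 reads in all and at most 6 in a library, was found in 12 of the 18 libraries and was not tested. The kit does not mark strand, and in the GENCODE M21 annotation exons of Il1a overlap Gm14023 and those of Il1b overlap Il1bos on the other strand, so that reads of these pairs cannot be told apart.

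Il15 and Il18 were low in every group, and neither was called in any of the comparisons made. Il15, whose product supports NK cells and memory T cells, was at 0.616 to 0.909 CPM with vehicle and 0.537 to 0.862 CPM with TWEAK at 6 h, and at 0.710 to 1.22 CPM and 0.693 to 0.771 CPM at 24 h. The groups overlapped, with log2 differences of -0.16 (interval -0.70 to 0.38, adjusted p = 0.742) at 6 h and -0.24 (interval -0.82 to 0.34, adjusted p = 0.537) at 24 h. Il18, the cytokine whose receptor chains were raised, had 0 to 15 reads per library. Its log2 difference with TWEAK was -1.20 at 6 h (interval -2.62 to 0.21, adjusted p = 0.237) and -1.15 at 24 h (interval -2.39 to 0.09, adjusted p = 0.138). Both intervals include 0 and large decreases, so a change in Il18 was not detectable at this depth. Il6, the acute-phase cytokine, had 1 read in all 18 libraries, in a vehicle library at 6 h, and its promoter was the one with the motif printed above. The 0 reads in the 5 other groups allow at most 0.0244 to 0.038 CPM, counting error only.

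For TWEAK with NIK SMI1 against TWEAK at 6 h, 0 of the 7 genes were called higher and 2 lower, where 5.34% and 5.7% of all tested genes were called. At 24 h, 1 was called higher and 2 lower, against 10.2% and 8.29%. Compared with vehicle, the inhibitor group had 2 genes higher and 1 lower at 6 h (7.24% and 6.7% of all genes) and 2 higher and 2 lower at 24 h (8.07% and 9.83%). Between vehicle at 24 h and at 6 h, 1 gene was higher and 3 were lower, where 15.5% and 14.4% of all genes were called. The TWEAK effect was more positive at 24 h for 2 genes and more negative for 2, against 3.24% and 5.67%. The inhibitor effect differed between the times for 0 of the 7 by edgeR, although 2, Il1rn and Il33, had an unadjusted p below 0.05, and DESeq2 called Il33 (log2 difference 0.665, adjusted p = 0.0213). Over all tested genes, 3.11% were called higher and 1.62% lower for that contrast. The comparisons with TWEAK share the TWEAK samples and those with vehicle share the vehicle samples.

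The receptor chains were read beside the ligands. Of 15 receptor and decoy genes in the files, 10 were tested, and TWEAK called 5 higher and 0 lower at 6 h and 4 higher and 2 lower at 24 h, where 11.7% and 12% of all tested genes were called higher and lower at 6 h and 18.3% and 20.7% at 24 h. Their median log2 fold change was 0.59 at 6 h and 0.29 at 24 h, beside -0.003 and -0.006 over all tested genes. The list was chosen with earlier results of these data known, so these shares and medians are descriptions and not independent evidence. NIK SMI1 called 0 higher and 3 lower at 6 h (5.34% and 5.7% of all tested genes), and 1 higher and 4 lower at 24 h (10.2% and 8.29%). Il18r1, the chain that binds IL-18, went with its partner Il18rap. It was at 61.3 ± 1.70 CPM in vehicle samples, 139 ± 5.89 CPM under TWEAK and 90.9 ± 2.15 CPM with the inhibitor at 6 h, and at 49.5 ± 0.953, 181 ± 4.38 and 124 ± 2.93 CPM at 24 h. The rise with TWEAK was 2.28-fold and 3.65-fold (adjusted p = 3.75e-19 and 2.99e-23), and the inhibitor lowered it to 0.655 and 0.681 of the TWEAK level (adjusted p = 4.77e-12 and 5.47e-12). Il18bp, the secreted decoy for IL-18, was not called for TWEAK at 24 h (log2 fold change 0.08, adjusted p = 0.811).

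Il1rl1 encodes ST2, the receptor for IL-33, and was also among the genes the study picked on these samples. It rose with TWEAK. The vehicle samples were at 2.65 to 3.08 CPM at 6 h and 2.03 to 3.09 CPM at 24 h, and the TWEAK samples at 4.93 to 6.35 CPM and 8.68 to 9.94 CPM. The samples with NIK SMI1 were at 2.99 to 4.26 CPM and 5.07 to 6.21 CPM, between the other groups at 24 h and overlapping vehicle at 6 h. The rise was 1.9-fold at 6 h (adjusted p = 6.19e-06) and 3.51-fold at 24 h (adjusted p = 4.86e-11), and NIK SMI1 lowered Il1rl1 by 0.53 and 0.78 on the log2 scale (log2 fold changes -0.53 and -0.78, adjusted p = 0.0134 and 2.64e-05). The signalling chain for IL-1, Il1r1, was called higher with TWEAK at 6 h (0.76 on the log2 scale, adjusted p = 0.0416), with a difference of -0.13 at 24 h (adjusted p = 0.776). The shared accessory chain Il1rap was lower at 24 h (-0.39, adjusted p = 2.51e-04). The decoy Il1r2 had 0 to 6 reads per library and was not tested. Il12rb2, a chain of the IL-12 receptor, was lower with TWEAK at 24 h (-0.45, adjusted p = 0.0333) and higher with the inhibitor (0.50, adjusted p = 0.0267).

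Il15ra, the chain that presents IL-15, rose with TWEAK. It had 6 to 11 reads per vehicle library and 22 to 34 per TWEAK library at 6 h, and 8 to 18 against 27 to 59 at 24 h. These were log2 fold changes of 1.69 (adjusted p = 5.29e-04) and 1.53 (adjusted p = 2.5e-04). With NIK SMI1 at 6 h the samples overlapped those with TWEAK and the difference was not called (-0.61, adjusted p = 0.287). At 24 h NIK SMI1 brought it from 1.26 ± 0.0628 to 0.415 ± 0.0501 CPM, beside 0.440 ± 0.0606 CPM with vehicle (log2 fold change -1.59, adjusted p = 1.93e-04). Il2rg, the common γ chain, had over 10 reads in 3 libraries and so was not tested. Those were the TWEAK libraries at 24 h, with 18, 33 and 29 reads, beside 1, 1 and 0 with vehicle and 6, 2 and 9 with the inhibitor at that time. For IL-6, Il6ra was not called with TWEAK at 24 h (-0.21, adjusted p = 0.488), while gp130 (Il6st) was 1.64-fold higher at 6 h and 1.42-fold at 24 h (adjusted p = 2.02e-11 and 1.18e-08), and slightly lower with NIK SMI1 (-0.18 and -0.15, adjusted p = 0.0248 and 0.039).

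**Figure D3:**
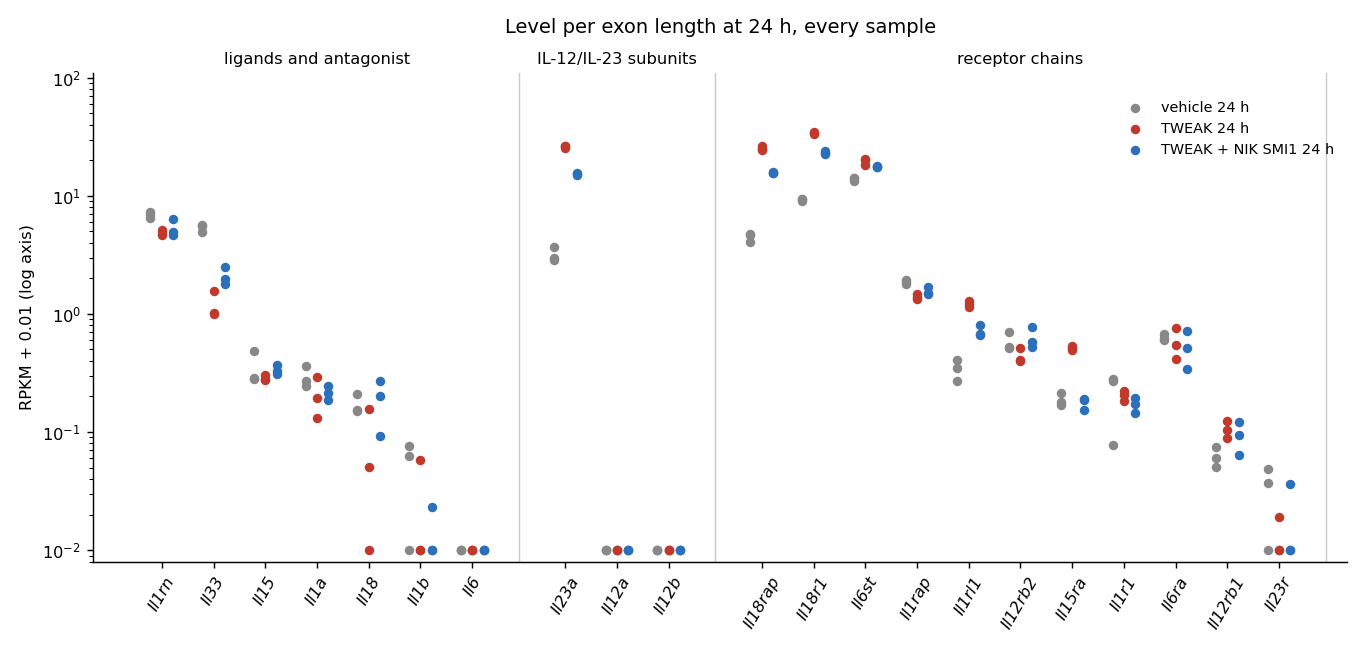
Level per exon length (RPKM as deposited, 0.01 added, log axis) of ligands, IL-12 and IL-23 subunits and receptor chains at 24 h, with 1 point per sample in grey for vehicle, red for TWEAK and blue for TWEAK with NIK SMI1. Il23a, Il18rap, Il18r1 and Il6st stand above 10 RPKM with TWEAK, and Il6st does so with vehicle as well. Il12a, Il12b and Il6 sit at the 0.01 that marks 0 reads.

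Per exon length, Il18r1 with TWEAK at 24 h was at 34.0 ± 0.697 RPKM, Il23a at 26.2 ± 0.459 and Il18rap at 25.3 ± 0.979 RPKM, and Il1rn at 4.89 ± 0.217 and Il33 at 1.18 ± 0.319 RPKM. With vehicle at the same time, Il1rn was the highest of the 10 genes at 6.94 ± 0.400 RPKM, followed by Il33 at 5.39 ± 0.400 and Il18rap at 4.50 ± 0.363 RPKM. Il1a was at 0.283 ± 0.0611 RPKM in those samples.

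Il18rap lies in a run of IL-1 receptor family genes on chromosome 1, in the RefSeq GRCm38.p6 order Map4k4, Il1r2, Il1r1, Il1rl2, Il1rl1, Il18r1, Il18rap, Slc9a4, Slc9a2 and Mfsd9. These neighbours were looked at after their values were seen. Il1rl1, Il18r1 and Il18rap were called higher with TWEAK and lower with NIK SMI1 at both times. The kinase gene Map4k4, at the far side of the run, was called higher as well, by 0.42 and 0.64 on the log2 scale (adjusted p = 6.36e-11 and 8.12e-15), and lower with the inhibitor (-0.19 and -0.30). Beyond Il18rap, the sodium-proton exchanger Slc9a2 was raised at 24 h by 0.35 (adjusted p = 0.0131) and lowered by the inhibitor at that time (-0.30, adjusted p = 0.0426), and Mfsd9 differed by -0.03 and -0.05 (adjusted p = 0.844 and 0.659). Slc9a4 was at most at 0.759 CPM in a group mean, and was called lower with TWEAK at 24 h (-2.02, adjusted p = 0.0181) and lower with NIK SMI1 at 6 h (-1.79, adjusted p = 0.0255).

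**Figure D4:**
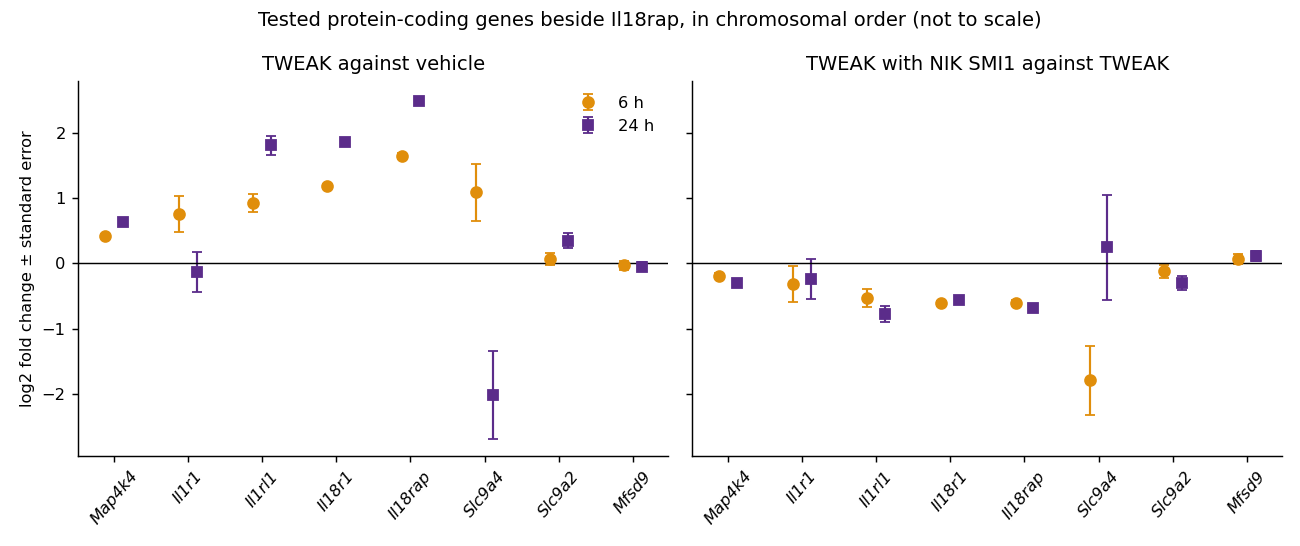
Log2 fold changes of the genes on either side of Il18rap on chromosome 1, in gene order and not to genomic scale, for TWEAK against vehicle and for TWEAK with NIK SMI1 against TWEAK. Il1rl1, Il18r1 and Il18rap stand highest with TWEAK at 24 h, at 1.81, 1.87 and 2.48, and Mfsd9 is near 0.

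Genes of the same pathways moved in both directions. Of 13 genes that process or release the IL-1 family, 6 were tested, and TWEAK called 2 higher and 1 lower at 6 h (11.7% and 12% of all tested genes) and 1 higher and 1 lower at 24 h (18.3% and 20.7%), the latter near the share over all genes. Casp4, the inflammatory caspase that senses lipopolysaccharide, rose 2.59-fold at 6 h (adjusted p = 0.00319) and 3.6-fold at 24 h (adjusted p = 0.0031) from a low level (29 reads with vehicle and 76 with TWEAK at 6 h), and fell by 1.91 on the log2 scale with NIK SMI1 at 6 h (adjusted p = 0.00186). With the inhibitor at 24 h it was at 0.501 of the TWEAK level (adjusted p = 0.0807), which was not called. Casp8 was higher at 6 h (0.23, adjusted p = 5.58e-06), and Capn2, a calpain, was lower at both times (-0.15 and -0.24, adjusted p = 8.78e-05 and 4.44e-08). Casp1, which cleaves pro-IL-1β and pro-IL-18, had 3 reads in all libraries.

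Of 21 genes of signalling below the receptors, 20 were tested, with 4 called higher and 1 lower with TWEAK at 6 h (11.7% and 12% of all tested genes) and 6 higher and 5 lower at 24 h (18.3% and 20.7%). Nothing particular to the list is read from these counts. The highest were Irak3, a brake on IL-1 receptor signalling (1.14 and 0.76, adjusted p = 4.38e-04 and 0.0138), Socs3, a feedback inhibitor of gp130 signalling (0.51 and 0.82, adjusted p = 2.83e-07 and 6.5e-11), and the kinase Tyk2 (0.67 and 0.50, adjusted p = 3.22e-12 and 1.32e-09). At 24 h NIK SMI1 lowered Irak3 (-0.86, adjusted p = 0.00873), Socs3 (-0.48, adjusted p = 1.29e-06) and Tyk2 (-0.41, adjusted p = 9.33e-08). At 6 h it lowered Tyk2 (-0.18, adjusted p = 0.00652), and the differences of Irak3 (-0.71, adjusted p = 0.059) and Socs3 (-0.19, adjusted p = 0.0568) were not called. Jak3 was lower with TWEAK at 24 h (-0.48, adjusted p = 1.43e-07) and differed by -0.003 at 6 h (adjusted p = 0.984).

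Of 31 other interleukin and partner subunit genes listed, 29 were in the files and 8 were tested. TWEAK called 1 higher and 2 lower at 6 h (11.7% and 12% of all tested genes) and 2 higher and 2 lower at 24 h (18.3% and 20.7%), from which nothing particular to the list is read. Il1f6, which encodes IL-36α, fell most, from 4.95 ± 0.486 to 3.39 ± 0.398 CPM at 6 h and from 1.60 ± 0.217 to 0.465 ± 0.0532 CPM at 24 h (log2 fold changes -0.52 and -1.73, adjusted p = 0.00482 and 8.02e-07). Il24 was lower too (-0.34 and -0.53, adjusted p = 8.31e-05 and 2.93e-07), and NIK SMI1 raised it at 24 h (0.29, adjusted p = 0.00223), with a difference of 0.13 at 6 h (adjusted p = 0.243). Il34, a ligand of the CSF-1 receptor, was the highest of these at 155 to 196 CPM in the group means and rose slightly (0.14 and 0.21, adjusted p = 0.00796 and 6.9e-05). Il7 was higher at 24 h (0.62, adjusted p = 0.00768).

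Across the 18 samples, Il18rap and Il23a had a Pearson r of 0.98, and each had an r of -0.94 and -0.92 with Il33, on log2 of CPM with 0.1 added. These are descriptions over samples that fall into the same 6 groups. By the same measure the genes most like Il18rap were Edn1 (r = 0.99), which encodes endothelin-1, and Rhobtb1 (r = 0.99). Edn1 went from 9.16 to 50.5 CPM with TWEAK and to 28.6 CPM with NIK SMI1 at 24 h. Those most like Il23a were Arhgef3 and Pdgfb (r = 0.99 each), and Pdgfb, a growth factor subunit, was at 196, 723 and 474 CPM in the same groups. Il33 was nearest to Ly6a and Samd9l (r = 0.97 each), and Il1rn to Lcn2 (r = 0.99), which encodes a marker of tubular injury, and Selenop (r = 0.98). The nearest to Il1a, Adipor2 and Gm10698, reached an r of 0.80 and 0.79.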

How the data were processed

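RNA of 18 samples was sequenced from unstranded TruSeq RNA v2 libraries. Alignment to NCBI build 37 of the mouse was done by the authors, with GSNAP as run by HTSeqGenie, and for each gene they deposited the raw count of uniquely aligned reads within exons. They also deposited RPKM values, scaled by exonic length and by the reads of the sample, which were used here only to set levels of different genes side by side. Sequencer, read length and RNA input are given differently in the labels and in the methods of the paper.

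Symbols were matched by Entrez Gene identifier to a RefSeq GRCm38.p6 table (31049 of 36528). No position was converted between builds. CPM was taken from library totals. Genes with over 10 reads in 4 or more samples were fitted as 6 groups of all 18 samples in edgeR 4.0.16 (TMM factors 0.964 to 1.03, quasi-likelihood F test, R 4.3.3), with Benjamini-Hochberg adjustment over 15521 genes and calls below 0.05. The SE was the log2 fold change divided by the root of F. Intervals are 95%, and those for 0 reads rest on 3 counts and cover counting error only. The script was tested on simulated counts.

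The genes and gene lists were chosen with earlier results of these data known. From each list the text names the receptor chains that bind one of the interleukins and up to 4 called genes with the largest change in a comparison. It also names, for each gene of the 10 called with TWEAK, the 2 genes with the highest Pearson r. Alternatives were DESeq2 1.42.0, its size factors in edgeR, library totals, other filters, the compared groups only, fold cut-offs, and leaving out each sample. The fit with a single TWEAK library at 24 h was added after the islet reads had been seen.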

Additional observations from a re-analysis of the deposited data

Results flagged for a closer look

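Of the 7 tested genes, 4 had a TWEAK effect that differed between 6 h and 24 h by the interaction contrast of the edgeR fit, and each difference, effect at 24 h minus effect at 6 h on the log2 scale, is given with the levels behind it. For Il18rap it was 0.831 ± 0.0703 SE (adjusted p = 2.89e-09), with a rise of 1.65 at 6 h and of 2.48 at 24 h. For Il23a it was 0.501 ± 0.118 (adjusted p = 0.00559), with rises of 2.57 and 3.07, and the call was lost without vehicle replicate 1 of 24 h. For Il33 it was -1.366 ± 0.185 (adjusted p = 8.95e-06), with decreases at both times (-0.79 and -2.15). For Il1rn it was -0.665 ± 0.105 (adjusted p = 7.55e-05), with 0.17 at 6 h, which was not called, and -0.49 at 24 h. In the vehicle samples the same genes also differed between the times, Il18rap by -0.57, Il23a by -0.62, Il1rn by -0.79 and Il33 by 0.80.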

How the results depend on the processing

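Of 28 called results of single genes, 25 stayed called with the same sign under every alternative run other than the fold cut-offs, and the 3 that did not were Il1a with TWEAK at 6 h, Il23a for the TWEAK effect at 24 h against 6 h, and Il33 with NIK SMI1 at 24 h. With the TWEAK library of 24 h that had the fewest islet reads as the only TWEAK sample, Il33 rose by 0.440 and 0 genes were called higher instead of 1. The call for Il1a was lost without a TWEAK sample of 6 h, so that 1 to 2 genes were called lower over the fits with a sample left out, and that for Il23a without a vehicle sample of 24 h, so that 1 to 2 were called higher for the TWEAK effect. Requiring more than a 2-fold change left 0 genes lower with TWEAK at 6 h, 1 lower at 24 h, 0 higher and 0 lower between the vehicle groups, and 0 higher and 1 lower for the TWEAK effect. Requiring 1.5-fold left 1 lower with NIK SMI1 against vehicle at 24 h. For the inhibitor effect at 24 h against 6 h, DESeq2 called 1 gene higher, no filter called 2, and fits with a sample left out called 0 to 1. The cause was not tested.

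Signs turned only in results that were not called in any of these fits. Il1a with NIK SMI1 at 24 h was 0.012 by DESeq2 and 0.145 with the single TWEAK library. Il1rn with NIK SMI1 against vehicle at 6 h was -0.001 by DESeq2, -0.001 with its size factors and -0.003 with library totals. With a sample left out, Il15 ranged from -0.326 to 0.018 with TWEAK at 6 h and from -0.415 to 0.011 at 24 h, Il1a from -0.187 to 0.341 and Il1rn from -0.015 to 0.216 with NIK SMI1 against TWEAK at 24 h, Il1rn from -0.004 to 0.017 with NIK SMI1 against vehicle at 6 h, and Il23a from -0.099 to 0.018 for the inhibitor effect at 24 h against 6 h. Il1rn with TWEAK at 6 h became called in 3 of 12 alternatives. Among them were the fit without the filter (0.175, adjusted p = 0.0243) and that with only the compared groups (0.176, adjusted p = 0.0248). No paired analysis was possible because the labels give no replicate numbers, and those used here are only the order of the samples. DESeq2 gave no adjusted p for Il18 with NIK SMI1 at 6 h and for Il1a in the inhibitor effect. Il1b, Il6 and Il12a, with 36, 1 and 1 reads in all, were limited by depth.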
